A study of Mus musculus with 4 samples.

Results

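The 10 genes of transcription factors that set the fate of CD8+ T cells were followed in single tumor-infiltrating lymphocytes (TILs) of WT and VISTA-KO mice: Tcf7, Lef1, Tox, Tox2, Id2, Id3, Bach2, Eomes, Tbx21 and Zeb2. They were taken by symbol, and all 10 were among the 32285 genes of both count tables. Naive and memory CD8+ T cells are known to hold TCF-1 (encoded by Tcf7), LEF-1, ID3 and BACH2, which keep a cell able to divide again and hold back effector genes. T-bet (Tbx21), EOMES, ID2 and ZEB2 drive effector programs, and TOX with its relative TOX2 belongs to the exhausted program that chronic antigen sets up in tumors. In tumors, a subset of PD-1+ cells that keeps TCF-1 is known to feed the terminally exhausted cells that carry TIM-3, the product of Havcr2.

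B16 melanoma, a transplantable tumor line of C57BL/6 mice, was grown in Vsir fl/fl CD4-Cre mice (VISTA-KO) and in Vsir fl/fl littermates without Cre (WT). Both genotypes carry floxed Vsir, the gene of VISTA, and CD4-Cre acts in developing T cells, so that CD4+ and CD8+ T cells were both targeted while myeloid cells kept the gene. Both received a TRP2 peptide vaccine with CpG and R848 on day 3 and antibody against CTLA-4 on days 4 and 8, and TILs were isolated on day 18 after treatment. Tumors of 5 to 6 mice by the methods, or 6 to 8 tumors by a legend, were pooled into 1 library per genotype, so that no spread between mice is known and no difference was tested.

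The WT library held 10337 barcodes and 72098984 UMIs (distinct RNA molecules), the VISTA-KO library 10085 barcodes and 59916814 UMIs, and 145 barcodes occurred in both. Filters of at least 600 genes and under 30% mitochondrial UMIs left 10224 and 9946 cells. CD8 cells (Cd8a or Cd8b1 detected, Cd4 not) numbered 5549 in WT and 4350 in VISTA-KO, conventional CD4 cells (Cd4 without Foxp3) 1768 and 3048, and regulatory cells (Cd4 with Foxp3) 1528 and 1270. A CD3 gene was detected in 95.4% to 99.8% of the cells of each class. By rule no CD8 cell held Cd4, but 6.25% of WT and 4.07% of VISTA-KO CD8 cells held a Foxp3 UMI. No rule kept Cd8 genes out of the CD4 classes. A Cd8a or Cd8b1 UMI was present in 32.7% of WT and 20.9% of VISTA-KO conventional CD4 cells, and in 52.0% and 29.5% of regulatory cells, whose median depth was 8838.5 UMIs in WT and 5939 in VISTA-KO. Strict classes, with a CD3 UMI in every cell, both Cd8 genes and no Foxp3 in CD8 cells and no Cd8 gene in the CD4 classes, are given beside the broader ones where a call changed. The 6 markers of plasmacytoid dendritic cells, which also carry Cd4, summed to 1507 CPM (counts of UMIs scaled to a total of 1e6) in WT conventional CD4 cells and 759.7 CPM in the VISTA-KO ones, and 5 melanoma markers to 10.5 and 199.6 CPM in CD8 cells of WT and VISTA-KO, 209 and 15.9 CPM in conventional CD4 and 5.63 and 194 CPM in regulatory cells. The counts of factors called between the genotypes were the same without the cells that held melanoma transcripts. Without those that held Siglech they were the same except for Zeb2 in regulatory cells. Vsir itself was at 112 CPM in WT against 111 CPM in VISTA-KO CD8 cells. A 5′ library can read Vsir outside of its deleted exons, so the level is no check on the deletion or on the labels.

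Over all CD8 cells, Tbx21 was the factor that differed most between the genotypes, and the others lay close together. Levels are CPM over the summed cells of a class, with exact 95% Poisson intervals that, like all intervals here, cover counting error only. Tbx21, the gene of the T-box factor T-bet, which drives interferon-γ and cytotoxic genes, was at 109 CPM in WT against 145 CPM in VISTA-KO CD8 cells, with a ratio of 1.33 (1.28 to 1.39). Its log2 ratio after adding 5 CPM was 0.40, below the size of 0.5 that was taken as a call. Of the 9 factors that had 20 CPM or more in a library, 0 reached that size in either direction, beside 1.08% of 6083 genes called higher and 0.690% called lower in VISTA-KO CD8 cells. Their median log2 ratio was -0.03, and that of all 6083 genes was -0.02.

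The naive and memory factors showed no common shift over all CD8 cells. Tcf7 was at 132 CPM in WT against 131 CPM in VISTA-KO, with a ratio of 0.990 (0.948 to 1.03), and Lef1, which encodes a relative of TCF-1 with the same kind of DNA-binding domain, at 69.3 and 73.3 CPM. Bach2, whose product represses effector genes at sites it shares with AP-1 factors, was at 20.1 and 22.5 CPM, and Id3, an inhibitor of the E proteins, at 20.2 and 17.2 CPM. Id2, the other inhibitor of E proteins, was at 553 CPM in WT against 496 CPM in VISTA-KO, with a ratio of 0.898 (0.879 to 0.917). Tox was at 191 and 166 CPM, with a ratio of 0.869 (0.837 to 0.901), and Tox2 at 9.78 and 10.4 CPM, below the level set for a call. Eomes, the T-box relative of Tbx21, was at 96.6 and 93.9 CPM, and Zeb2, a zinc finger repressor that acts in terminal effector cells, at 47.2 and 46.1 CPM. The intervals of the ratios of Tcf7, Lef1, Tox2, Eomes and Zeb2 all contained 1.

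**Figure D1:**
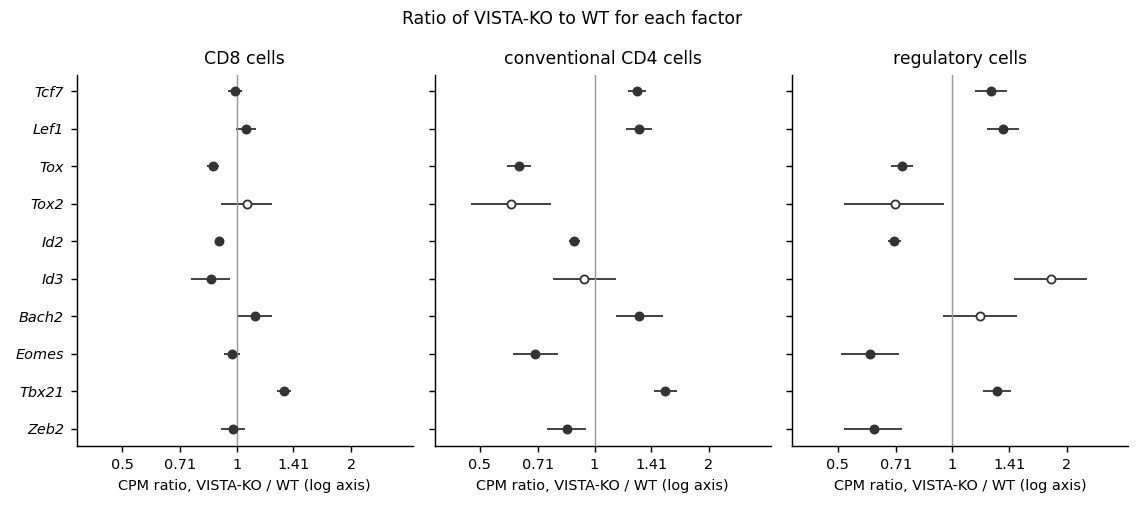
Ratio of the summed CPM in VISTA-KO to that in WT for each factor, on a log axis, in CD8, conventional CD4 and regulatory cells. Bars are exact 95% intervals of counting error, open symbols stand for factors under 20 CPM in both libraries, and Tbx21 lies to the right of 1 in all 3 classes while Tox lies to the left.

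Over all genes with enough counts, the median size of the log2 ratio between the libraries was 0.07 in CD8, 0.10 in conventional CD4 and 0.12 in regulatory cells. The CD8 cells also held the most UMIs, 37431872 in WT and 28412496 in VISTA-KO. Conventional CD4 cells held 10761695 and 16039226, and regulatory cells 18301917 and 9620300. The part of counting error in these medians was not tested. In conventional CD4 cells, Tbx21 was at 103 CPM in WT against 157 CPM in VISTA-KO (log2 ratio 0.59), and Tox at 138 and 87.4 CPM (log2 ratio -0.63). These were the 2 calls among 8 factors with enough counts, 1 higher and 1 lower, where 1.50% of 6336 genes were called higher and 2.75% lower. Tcf7 was at 201 and 259.8 CPM there, Lef1 at 91.9 and 120.1 CPM, and Bach2 at 27.8 and 36.4 CPM, ratios of 1.29 to 1.31 that stayed under the call. In strict conventional CD4 cells, the log2 ratio of Tbx21 was 0.53, that of Tox -0.46, that of Tcf7 0.13 and that of Lef1 0.20. The Tox call was also lost without cells that held a Mki67 or Top2a UMI and when each cell weighed the same.

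Regulatory cells held 3 calls, all lower in VISTA-KO, among 7 factors with enough counts. Id2 was at 506 CPM in WT against 355 CPM in VISTA-KO (log2 ratio -0.50), Eomes at 28.8 and 17.6 CPM (log2 ratio -0.58) and Zeb2 at 29.0 and 17.98 CPM (log2 ratio -0.56). Of 6281 genes, 2.50% were called lower and 2.83% higher. The 5 CD8 markers (Cd8a, Cd8b1, Nkg7, Ccl5 and Gzmk), none of them at 0, summed to 6932 CPM in WT against 4858 CPM in VISTA-KO regulatory cells, and 4 of the 5 were called lower. Of the 3 factors, only Id2 kept its call in strict regulatory cells, at 487 and 330.2 CPM. Eomes was at 2.74 and 2.70 CPM in strict regulatory cells, and Zeb2 at 14.7 and 12.6 CPM. Without cells that held Siglech, 2 of the 3 calls were kept, and the log2 ratio of Zeb2 was -0.47. In the strict cells Tcf7 (40.4 and 60.2 CPM), Lef1 (46.7 and 73.5 CPM) and Tbx21 (57.4 and 90.1 CPM) passed the size of a call instead, all higher in VISTA-KO. The share of all genes past that size between the genotypes was not computed for strict cells. Tbx21 stood at 73.6 and 96.4 CPM in all regulatory cells, a ratio of 1.31 (1.20 to 1.42).

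The direction of the difference was shared by the 3 classes for several factors. Of the 7 factors with enough counts in every class, Lef1 and Tbx21 were higher in VISTA-KO in all 3. Tox, Id2, Eomes and Zeb2 were lower in all 3. The ratio of Lef1 in CD8 cells was 1.06 (0.999 to 1.12). Lef1 turned lower in VISTA-KO CD8 cells once the CD8 groups described below were weighted as in WT. Over all 5766 genes with enough counts, 18.7% were higher in every class and 33.0% were lower. Eomes and Zeb2 were higher in strict VISTA-KO conventional CD4 cells, with 13.4 against 15.7 CPM for Eomes and 27.5 against 28.3 CPM for Zeb2, so that their shared direction was lost there. In CD8 cells their ratios lay close to 1, and their signs held in 9 of 11 alternatives for Eomes and 10 of 11 for Zeb2. Without the largest clonotype of each library, Zeb2 was at 44.98 CPM in WT against 48.2 CPM in VISTA-KO CD8 cells. Id2 was then at 510.1 CPM in WT against 486 CPM in VISTA-KO. It was still lower in VISTA-KO, but by less than over all CD8 cells.

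Over the classes, Tcf7 and Eomes had the widest spans. Tcf7, Lef1 and Bach2 ran in 1 order, from conventional CD4 over CD8 to regulatory cells, although Lef1 was at 73.3 CPM in both of the last in VISTA-KO. Within both libraries, Tcf7 was lowest in regulatory cells, with 58.5 and 74.0 CPM in WT and VISTA-KO, and highest in conventional CD4 cells, with CD8 cells between them. Eomes was higher in CD8 than in conventional CD4 cells, by 2.46-fold (2.23 to 2.73) in WT and 3.42-fold (3.09 to 3.796) in VISTA-KO. In strict cells Eomes went from 104 and 99.4 CPM in CD8 to 13.4 and 15.7 CPM in conventional CD4 and 2.74 and 2.70 CPM in regulatory cells. Calls here needed a log2 ratio of at least 0.5 in size in both libraries. Of 8 factors with enough counts, Eomes was called higher and Tcf7 lower in CD8 than in conventional CD4 cells, beside 1.44% of 6122 genes called higher and 3.97% called lower. Against regulatory cells, Tcf7, Bach2, Eomes, Tbx21 and Zeb2, 5 of 8, were called higher in CD8 cells and 0 lower, beside 2.70% and 5.91% of 6142 genes. Regulatory cells were called lower than conventional CD4 cells for Tcf7, Lef1, Bach2 and Zeb2, 4 of 8, and higher for 0, beside 3.26% and 3.65% of 6190 genes. Without cells that held Siglech, Zeb2 was at 25.5 CPM in regulatory against 33.2 CPM in conventional CD4 cells of WT, under the size of a call. Tbx21 then passed that size, with 74.8 against 111.6 CPM in WT and 96.5 against 163.4 CPM in VISTA-KO. Tox was 1.38-fold (1.31 to 1.46) higher in CD8 than in conventional CD4 cells of WT and 1.90-fold (1.79 to 2.02) higher in VISTA-KO. Id2 differed little between CD8 and conventional CD4 cells, with ratios of 1.04 and 1.05.

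In strict classes 38 of 60 ratios between classes moved beyond counting error, and the calls changed. Tox joined Eomes as higher in CD8 than in conventional CD4 cells, with 203 against 103 CPM in WT and 174 against 73.4 CPM in VISTA-KO. Lef1 (65.8 against 116 CPM, and 67.9 against 134 CPM) and Bach2 (18.6 against 32.6 CPM, and 20.5 against 38.5 CPM) joined Tcf7 as lower. These were 2 higher and 3 lower of 8 factors, beside 4.43% and 6.74% of 6158 genes. Zeb2 went from ratios of 0.965 and 1.12 in the broader classes to 1.64 and 1.47, and reached the size of a call in WT alone. Against regulatory cells, Tcf7, Eomes, Tbx21 and Zeb2, 4 of 7, were called higher in CD8 cells and 0 lower, beside 4.29% and 10.2% of 6219 genes. Bach2, at 18.6 CPM in strict CD8 against 5.47 CPM in strict regulatory cells of WT, no longer reached 20 CPM there. Regulatory cells were lower than conventional CD4 cells for Tcf7, Lef1, Bach2, Tbx21 and Zeb2, 5 of 7, and higher for Tox, beside 4.64% and 5.93% of 6206 genes.

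Some of the factors are also used by other cells. In 46 WT and 45 VISTA-KO plasmacytoid dendritic cells, taken by Siglech without CD3 genes, Zeb2 was at 248 and 278 CPM, above every T cell class, so these cells give no background for Zeb2. Tcf7 had 0 and 2 UMIs in them, Eomes and Tox2 0 in both, and Id3 was at 16.2 and 40.4 CPM. Bach2 was at 10.8 CPM (2.94 to 27.7) and 16.2 CPM (5.93 to 35.2) in them, from 4 and 6 UMIs, against 11.4 and 13.5 CPM in regulatory cells. The intervals contain the regulatory levels, so these few UMIs cannot show whether Bach2 in regulatory cells passed a background. Without cells that held a Siglech UMI, Zeb2 in conventional CD4 cells was at 33.2 CPM (WT) and 31.9 CPM (VISTA-KO), against 48.9 and 41.3 CPM with them. The 7 macrophage markers, none of them at 0, summed to 710.0 CPM in WT against 415 CPM in VISTA-KO CD8 cells. In regulatory cells they summed to 1467 and 875 CPM. Cd74 made up most of these sums, with 593 and 296 CPM in CD8 and 1331 and 804 CPM in regulatory cells. In CD8 cells Lyz2 was also lower in VISTA-KO, at 53.8 and 42.1 CPM. Apoe was called higher there, at 16.5 and 25.6 CPM, and C1qa, C1qb, C1qc and Ms4a7 were higher under the call. In regulatory cells all 4 markers with enough counts were called lower. The part of these markers in the level of Zeb2, which macrophages also use, was not tested.

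**Figure D2:**
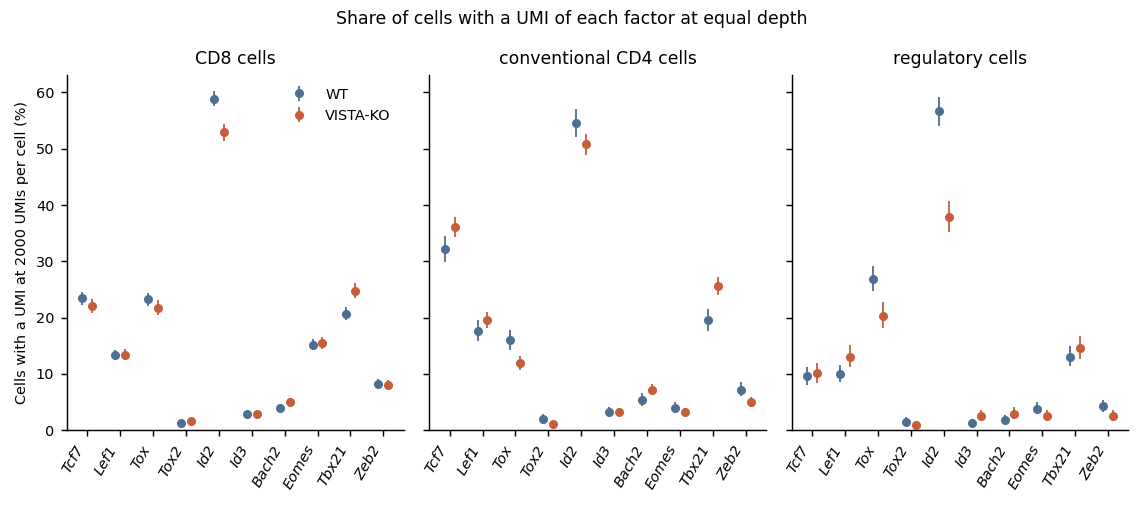
Share of cells with at least 1 UMI of each factor, in percent, after each cell was thinned to 2000 UMIs, for WT and VISTA-KO cells of 3 classes. Bars are exact 95% binomial intervals, and Id2 was detected in the largest share of cells in every class while Tox2, Id3 and Bach2 stayed at or under 7.20%.

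Once depth was made equal, shares of CD8 cells with a UMI ran the same way as the levels for Tbx21, Id2, Tcf7 and Tox. For Eomes they ran the other way, with 15.2% in WT and 15.5% in VISTA-KO. Cells were thinned to 2000 UMIs, which left out 290 WT and 186 VISTA-KO CD8 cells, and shares carry Clopper-Pearson intervals. A Tbx21 UMI was present in 20.7% (19.6 to 21.8) of CD8 cells in WT against 24.7% (23.4 to 26.1) in VISTA-KO, and in 44.0% and 51.5% without thinning. Id2 was detected in 58.9% and 52.9% (78.6% and 73.9% without thinning), Tcf7 in 23.4% and 22.1% and Tox in 23.2% and 21.8%. In regulatory cells Id2 was detected in 56.6% of WT and 37.9% of VISTA-KO cells at equal depth. Tbx21 was detected there in 13.1% (11.4 to 14.9) and 14.7% (12.7 to 16.8), intervals that overlap, while the ratio of its CPM was 1.31. In the plasmacytoid dendritic cells, of a median depth of 8132 and 8122 UMIs, Id2 was detected in 2.17% and 2.27% at the same thinned depth, and Tbx21 had 0 and 2 UMIs in all. Id3 was detected in 2.99% and 2.81% of CD8 cells. In the plasmacytoid dendritic cells it was detected in 4.35% (0.531 to 14.8) and 4.55% (0.555 to 15.5), 2 cells in each library. These intervals contain the CD8 shares, so they cannot show whether Id3 in CD8 cells passed a background. Of the CD8 cells, 10.2% in WT and 11.9% in VISTA-KO held no UMI of any of the factors, and 35.1% and 34.4% held 2 of them.

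To describe the factors within the CD8 cells, 7 groups were set by genes that are not among the factors. Dividing cells held a Mki67 and a Top2a UMI. The others were split by Pdcd1, the gene of PD-1, into Pdcd1 cells with Havcr2, with Slamf6 but no Havcr2, or with neither, and into cells without Pdcd1 that held Cx3cr1 or S1pr5, Il7r but neither of these, or none of these genes. The groups held 227 to 1551 cells per library, and their median depths lay between 3780.5 UMIs in WT Cx3cr1 or S1pr5 cells and 16213 UMIs in WT dividing cells, so a deep cell had more chances to enter a group that needs a UMI.

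Tcf7, Lef1 and Bach2 peaked in the cells with Il7r, the receptor for the survival cytokine IL-7, in both libraries. Tcf7 was at 387 CPM (WT) and 384 CPM (VISTA-KO) there and at 40.1 and 18.8 CPM in the Pdcd1 cells with Havcr2, spans of 9.67-fold (8.43 to 11.1) and 20.4-fold (16.6 to 25.2). In the Pdcd1 cells with Slamf6, a surface receptor of the stem-like exhausted cells, Tcf7 lay between these, at 185 and 254 CPM. Lef1 was at 200.4 and 217 CPM in the Il7r cells, at 71.2 and 66.8 CPM in the Pdcd1 cells with Slamf6 and at 32.3 and 28.8 CPM in those with Havcr2. Bach2 was at 51.7 and 51.9 CPM in the Il7r cells and at 29.6 CPM or less in all others. Id3 was highest in the Il7r cells of WT, at 57.2 CPM, and at 34.3 CPM in those of VISTA-KO, close to the 35.4 CPM of the cells with none of the genes there. In the Pdcd1 cells it was at 33.8 and 30.5 CPM with Slamf6 and at 6.63 and 2.07 CPM with Havcr2.

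**Figure D3:**
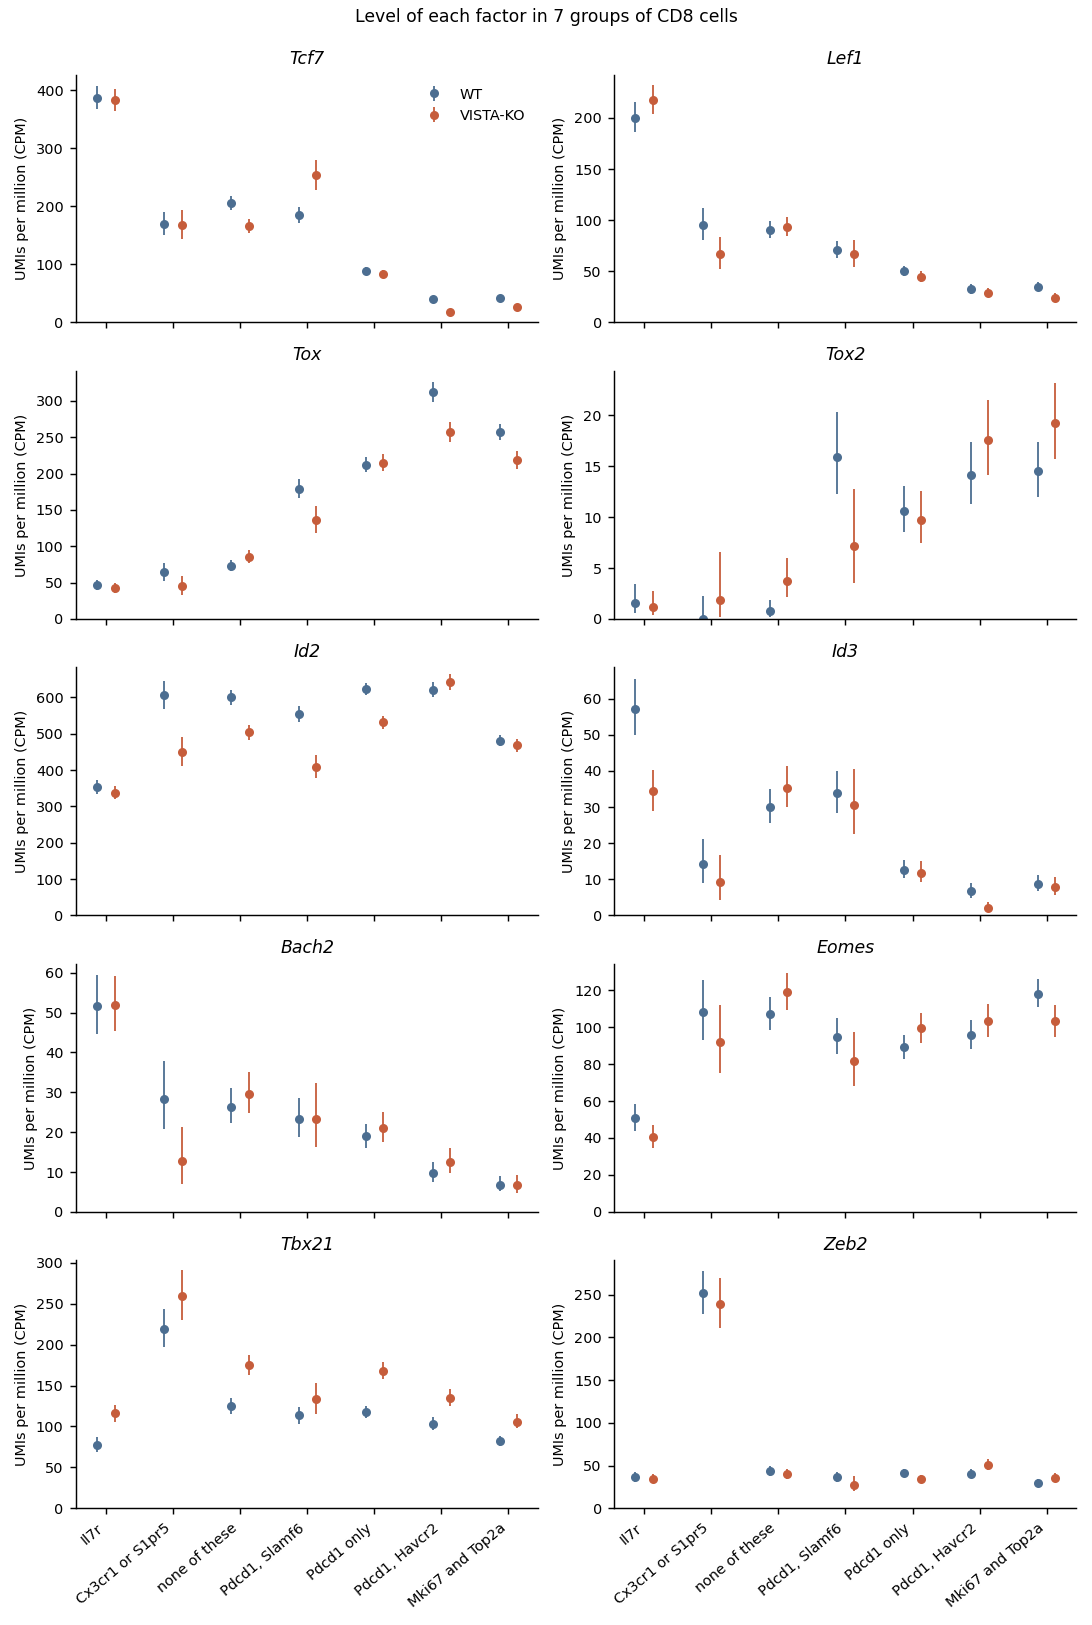
Summed level of each factor in CPM, on a linear axis from 0, in 7 groups of CD8 cells set by other genes, for WT and VISTA-KO. Bars are exact 95% Poisson intervals, and the panels show Tcf7, Lef1 and Bach2 highest in the Il7r cells, Tox highest in the Pdcd1 cells with Havcr2 and Zeb2 standing out in the Cx3cr1 or S1pr5 cells alone.

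The sequences before the starts of Lef1, Bach2 and Id3, and of Tbx21, are printed because they hold short motifs of the factors themselves, from RefSeq on GRCm38.p6. Of the 10 genes, 9 had at least 1 window in the table, 20 windows in all. Each run is the 250 bases before an annotated start, read 5′ to 3′ on the strand of the gene, with capitals on TCAAAG (the core bound by TCF-1 and LEF-1), GGTGTG (a T-box core) and CAGGTG (an E-box that E proteins and ZEB2 can bind), searched on both strands. The Lef1 and Bach2 starts lie inside the spans of their genes, at chr3:131156044-131156293 and chr4:32417185-32417434, both on the plus strand, and Lef1 has further starts upstream of it. The Id3 window is chr4:136143572-136143821 on the plus strand and that of Tbx21 chr11:97115332-97115581 on the minus strand.
Lef1: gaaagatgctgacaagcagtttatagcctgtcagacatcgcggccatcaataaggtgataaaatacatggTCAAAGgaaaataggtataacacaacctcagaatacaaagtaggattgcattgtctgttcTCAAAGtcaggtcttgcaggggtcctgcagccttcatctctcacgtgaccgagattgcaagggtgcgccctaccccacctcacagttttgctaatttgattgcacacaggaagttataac
Bach2: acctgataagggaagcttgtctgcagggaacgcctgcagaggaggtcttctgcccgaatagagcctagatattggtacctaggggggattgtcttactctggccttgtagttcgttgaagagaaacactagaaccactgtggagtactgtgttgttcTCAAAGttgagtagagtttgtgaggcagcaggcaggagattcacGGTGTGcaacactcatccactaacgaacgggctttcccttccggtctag
Id3: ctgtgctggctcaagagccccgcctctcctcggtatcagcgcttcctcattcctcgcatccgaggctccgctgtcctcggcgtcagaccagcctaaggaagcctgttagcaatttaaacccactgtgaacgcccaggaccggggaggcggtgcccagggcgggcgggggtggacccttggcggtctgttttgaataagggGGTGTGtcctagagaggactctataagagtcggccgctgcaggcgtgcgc
Tbx21: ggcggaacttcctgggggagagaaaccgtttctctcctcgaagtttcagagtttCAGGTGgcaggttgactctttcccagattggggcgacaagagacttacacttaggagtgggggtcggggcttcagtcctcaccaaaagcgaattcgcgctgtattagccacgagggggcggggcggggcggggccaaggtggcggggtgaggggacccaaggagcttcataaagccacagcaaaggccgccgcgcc
TCAAAG occurred 2 times in the Lef1 window and 1 time in that of Bach2, and was held by 13.8% of all 32851 windows of the table. GGTGTG occurred 1 time in the windows of Bach2 and Id3, 49 and 50 bases before the start, and was held by 16.3% of all windows. CAGGTG occurred 1 time in that of Tbx21, 196 bases before the start, and was held by 17.2%. TGANTCA, a form of the site that BACH2 and AP-1 factors bind, was in none of these 4 windows and in 6.75% of all. The T-box core can overlap the end of the E-box. Over the 20 windows, TCAAAG was in 4, GGTGTG in 8, CAGGTG in 2 and TGANTCA in 1. Some windows overlap, so that the 2 windows of Tox2 with TCAAAG hold 1 site between them, and so do 2 of the Zeb2 windows with GGTGTG. A match names letters in a window, not a bound site.

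Tox and Tox2 ran the other way. Tox, which encodes an HMG-box factor needed for exhausted cells to persist, was at 46.4 CPM in WT against 42.3 CPM in VISTA-KO in the Il7r cells, at 179 and 136 CPM in the Pdcd1 cells with Slamf6 and at 312 and 257 CPM in those with Havcr2. Tox2 had 0 UMIs among 1625171 in the WT Cx3cr1 or S1pr5 cells, which allows up to 1.85 CPM, and 1.82 CPM in the VISTA-KO ones. It was at 14.1 and 17.5 CPM in the Pdcd1 cells with Havcr2. Unlike Tox, it was highest in the Pdcd1 cells with Slamf6 in WT, at 15.9 CPM against 7.14 CPM in VISTA-KO. In VISTA-KO it was highest in the dividing cells, at 19.2 CPM, and it stayed under 20 CPM in every group. Every Pdcd1 group and the dividing cells lay above the groups without Pdcd1 for Tox in both libraries. For Tox2 this also held in both libraries.

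Effector factors had separate patterns. Zeb2 was at 252 CPM in WT against 239 CPM in VISTA-KO in the cells with Cx3cr1 or S1pr5, receptors of long-lived effector cells in blood, and between 27.9 and 51.1 CPM in all other groups. Tbx21 also peaked there, at 219 and 259.7 CPM, and lay between 77.4 and 175 CPM in the others, lowest in the Il7r cells of WT and in the dividing cells of VISTA-KO. Id2 varied least, by 1.76-fold (1.66 to 1.87) in WT and 1.91-fold (1.79 to 2.03) in VISTA-KO, from 354 and 337 CPM in the Il7r cells to 623 CPM in the WT Pdcd1 cells with neither Slamf6 nor Havcr2 and 643 CPM in the VISTA-KO Pdcd1 cells with Havcr2. Eomes was lowest in the Il7r cells of both libraries, at 50.6 and 40.6 CPM, and highest in the dividing cells of WT, at 118 CPM, and in the cells with none of the genes in VISTA-KO, at 119 CPM.

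Within the groups, Tbx21 was higher in VISTA-KO than in WT in 7 of 7, with ratios of 1.17 to 1.50, and the interval lay above 1 in 6 of them. It was the only 1 of 7 factors with enough counts in every group that ran 1 way throughout, and 4.42% of 5207 genes were higher in all 7 groups, with 7.34% lower. The share of all genes with an interval above 1 was not computed. The Il7r cells held 77.4 CPM in WT against 116 CPM in VISTA-KO, and the Pdcd1 cells with neither Slamf6 nor Havcr2 held 117 and 168 CPM. With the VISTA-KO groups weighted as in WT, the level of Tbx21 in CD8 cells was 145 CPM, against 145 CPM as measured. That of Lef1 was then 65.5 CPM, against 73.3 CPM as measured and 69.3 CPM in WT. Lef1 was lower in VISTA-KO in 5 of the 7 groups. Immediate-early genes, which also answer to handling and receptor signals, differed between the same libraries. The 9 of the list summed to 3175 CPM in WT against 4077 CPM in VISTA-KO CD8 cells, and their part in the Tbx21 difference was not tested.

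Tcf7, level between the libraries as a whole, was unlike between them within groups. It was higher in VISTA-KO in the Pdcd1 cells with Slamf6, with a ratio of 1.37 (1.21 to 1.55). It was lower in the Pdcd1 cells with Havcr2, with 0.470 (0.369 to 0.596), in the dividing cells, with 0.617 (0.506 to 0.7497), and in the cells with none of the genes, with 0.810 (0.738 to 0.890). In the Il7r cells the ratio was 0.990 (0.922 to 1.06). Lef1 was lower in VISTA-KO with an interval under 1 in the Cx3cr1 or S1pr5 cells, with 0.697 (0.521 to 0.927), and in the dividing cells, with 0.686 (0.554 to 0.845). Id2 was lower in 4 groups with intervals under 1, most of all in the Pdcd1 cells with Slamf6, with 0.737 (0.673 to 0.806). Its interval lay above 1 in 0 groups. Tox was also lower in 4 groups with intervals under 1, with 0.698 (0.486 to 0.989) in the Cx3cr1 or S1pr5 cells as the lowest. In the cells with none of the genes Tox was higher, with 1.17 (1.02 to 1.35). Id3 was lower in the Il7r cells, with a ratio of 0.599 (0.482 to 0.743). The log2 ratio of Tcf7 was -0.92 in the Pdcd1 cells with Havcr2, where 2.12% of 5979 genes were lower by the size of a call. It was -0.61 in the dividing cells, beside 1.27% of 6211 genes. That of Id3 in the Il7r cells was -0.66, beside 2.59% of 6095 genes. The share of all genes with an interval under 1 was not computed for any group.

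**Figure D4:**
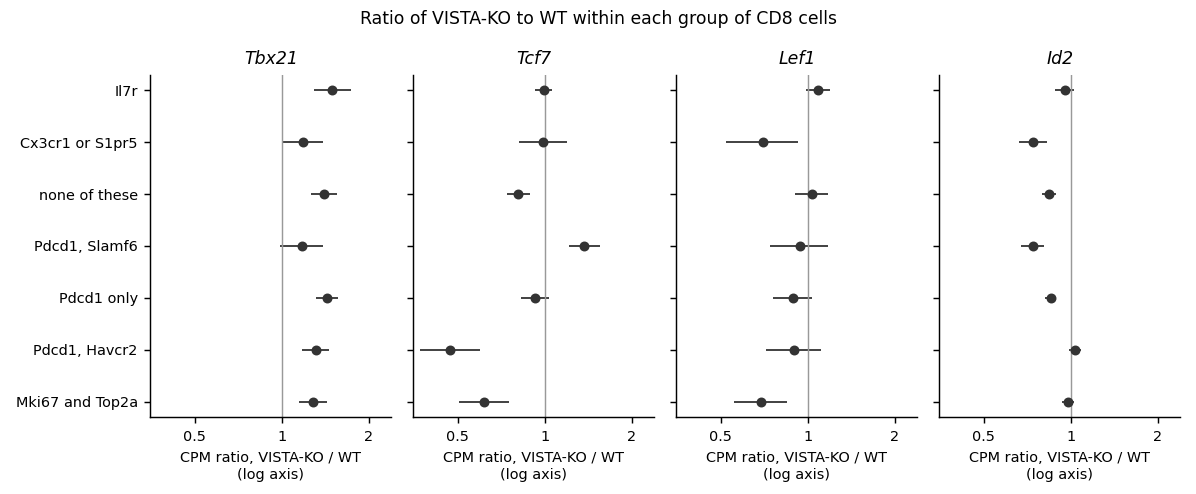
Ratio of the CPM in VISTA-KO to that in WT, on a log axis, of Tbx21, Tcf7, Lef1 and Id2 within each of 7 groups of CD8 cells. Bars are exact 95% intervals of counting error, and all 7 points of Tbx21 lie above 1 while those of Tcf7 lie from 0.470 to 1.37.

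The largest clonotype, a set of cells with 1 T cell receptor, had its own levels in each library. It made up 1034 of the WT CD8 cells (18.6%) and 291 of the VISTA-KO ones (6.69%). In WT it held Tcf7 at 100.3 CPM, Tox at 73.4 CPM and Id2 at 833 CPM, against 137, 209 and 510.1 CPM in the remaining CD8 cells. In VISTA-KO it held Tcf7 at 8.83 CPM, Tox at 177 CPM and Id3 at 0.883 CPM, against 141, 165 and 18.7 CPM in the rest. Id3 was at 4.60 against 22.6 CPM in WT, and Id2 at 618 against 486 CPM in VISTA-KO. In both libraries the clonotype thus held more Id2 and less Tcf7 and Id3 than the remaining cells, while Tox was lower in that of WT alone. Without both clonotypes, the ratio of Tcf7 was 0.525 in the Pdcd1 cells with Havcr2 and 1.20 in those with Slamf6, and that of Tbx21 stayed between 1.17 and 1.54 over the groups. The ratio of Id2 in the Pdcd1 cells with Slamf6 was then 0.890 (0.808 to 0.979). Its lowest was 0.792 (0.706 to 0.889), in the Cx3cr1 or S1pr5 cells, with intervals under 1 in 3 groups in place of 4. Tox then had intervals under 1 in 5 groups and above 1 in 0.

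Which factors meet in a cell was read from the thinned CD8 cells, 5259 in WT and 4164 in VISTA-KO. For each of the 45 pairs the number of cells with both was set against the number expected if the factors were detected independently of each other. In both libraries, 8 pairs had more such cells than expected and 10 had fewer, with intervals off 1 and at least 5 cells expected. Pairs of other genes were not counted, so these numbers have no share over all gene pairs to be read beside. Over the 43 pairs with enough cells expected in each library, the median ratio was 0.871 in WT and 0.868 in VISTA-KO. The pairs in excess included a naive and memory set (Tcf7 with Lef1, Id3 and Bach2, and Lef1 with Bach2). The others were Tox with Tox2 and with Eomes, Tox2 with Eomes, and Tbx21 with Zeb2. The pairs in deficit set Tcf7 against Tox, Tox2, Id2, Eomes and Zeb2, Lef1 against Tox and Id2, and Id3 against Id2, Tox and Zeb2.

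Tcf7 and Lef1 were found together in 283 WT cells where 164 were expected, a ratio of 1.73 (1.54 to 1.93), and in 257 VISTA-KO cells where 124 were expected, a ratio of 2.08 (1.84 to 2.34). Tcf7 with Id3 gave 1.96 and 2.24, and Tcf7 with Bach2 1.85 and 1.90. Tcf7 and Tox met in 152 WT cells where 286 were expected and in 107 VISTA-KO cells where 200.4 were expected, a ratio of 0.531 in WT and 0.534 in VISTA-KO. Tox and Tox2 gave 2.59 and 2.17, and Tbx21 and Zeb2 1.45 and 1.48. Eomes and Tbx21, the pair of T-box factors, met in 160 cells of each library where 165 and 159 were expected. Tox2 and Zeb2 were found together in 0 of 5259 WT cells, which allows a share of up to 0.0570%, where 5.64 cells were expected, and in 3 VISTA-KO cells where 5.79 were expected, a ratio of 0.518 (0.107 to 1.51).

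**Figure D5:**
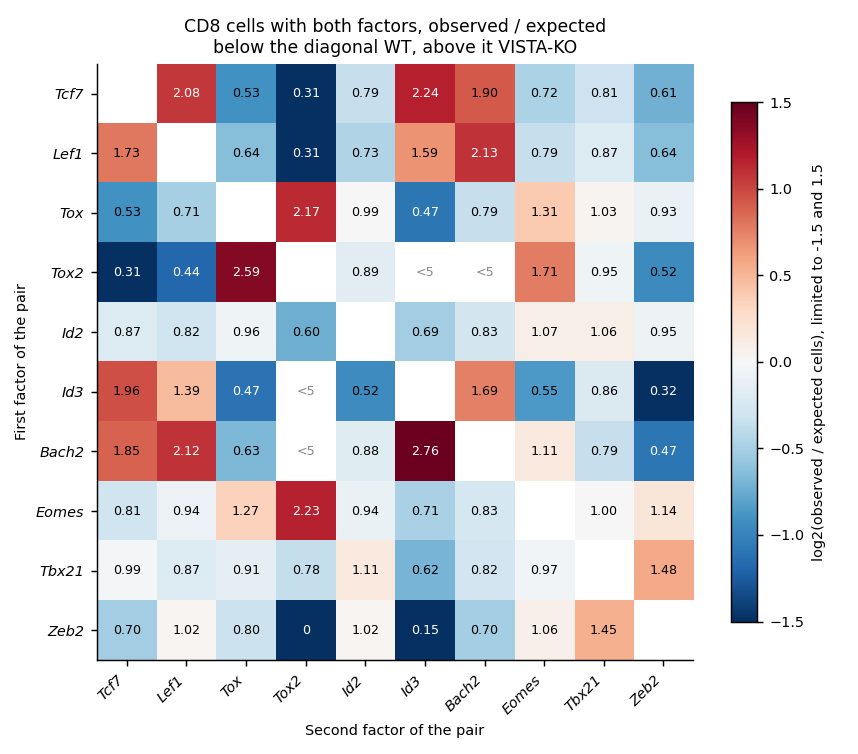
CD8 cells with both factors of a pair, observed over expected, after thinning to 2000 UMIs, with WT below the diagonal and VISTA-KO above it. Red marks pairs found above the expected number, blue pairs below it, cells marked <5 had fewer than 5 expected, and the Tcf7 row runs from 0.314 with Tox2 to 2.24 with Id3 in VISTA-KO.

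The ratios were also formed inside the groups. With the expectation formed within each of the 7 groups, Tcf7 and Lef1 gave 1.38 in WT and 1.47 in VISTA-KO, Tcf7 and Tox 0.715 and 0.793, Tox and Tox2 1.84 and 1.55, and Tbx21 and Zeb2 1.252 and 1.30. All of these lay nearer to 1 than over all CD8 cells. A thinned cell is 1 random draw, and over all possible draws the pairs gave 1.67 and 2.04 for Tcf7 and Lef1, 0.578 and 0.568 for Tcf7 and Tox, 2.397 and 2.37 for Tox and Tox2, and 1.38 and 1.28 for Tbx21 and Zeb2. Tcf7 with Eomes moved from 0.814 to 0.917 in WT and from 0.717 to 0.735 in VISTA-KO. Several pairs of the rarer factors moved more, some of them in WT and others in VISTA-KO. Bach2 with Zeb2 went from 0.703 to 0.822 in WT and from 0.474 to 0.859 in VISTA-KO. Tox with Id3 went from 0.466 to 0.771 in WT and from 0.471 to 0.571 in VISTA-KO, Id3 with Zeb2 from 0.154 to 0.407 and from 0.319 to 0.327, and Tox2 with Eomes from 2.23 to 1.58 and from 1.71 to 1.56. Tox2 with Zeb2 gave 0.332 in WT and 0.994 in VISTA-KO over all draws.

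Cells with Tcf7 alone, Tox alone and both in the thinned draw were set side by side. Their levels were summed from all UMIs of these cells. A cell without Tcf7 or Tox in the draw could therefore hold that gene among its full counts. The 152 WT and 107 VISTA-KO cells with both held Slamf6 at 74.9 and 122 CPM and Pdcd1 at 467 and 357 CPM. Cells with Tox and no Tcf7 held less Slamf6, 31.6 and 19.3 CPM, more Pdcd1, 719 and 715 CPM, and more Havcr2, 94.6 and 109 CPM against 12.3 and 29.0 CPM. Cells with Tcf7 and no Tox held the least Pdcd1, 213 and 125 CPM, and the most Il7r, 251 and 367 CPM. Eomes was higher in the cells with both, at 134 and 128 CPM, than in those with Tcf7 alone, at 80.5 and 62.8 CPM. Neither gene was detected in 56.2% and 58.7% of the cells at this depth.

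In conventional CD4 cells, 3 of the 4 pairs of the naive and memory set met more often than expected in both libraries. Tcf7 with Lef1 gave 1.47 in WT and 1.61 in VISTA-KO, Tcf7 with Bach2 1.75 and 1.63, and Lef1 with Bach2 1.72 and 1.84. Tcf7 with Id3 gave 1.255 (0.778 to 1.91) and 1.33 (0.970 to 1.77), intervals that both contain 1. Tox with Eomes gave 2.60 and 2.44 there, from 27 cells in each library. Eomes was at 39.2 and 27.4 CPM in these cells but at 13.4 and 15.7 CPM in strict conventional CD4 cells. Pairs were not recomputed in the strict CD4 classes, so the part of cells with Cd8 UMIs in these pairs is unknown. In regulatory cells 26 pairs in WT and 19 in VISTA-KO had enough cells expected, and Tcf7 with Lef1 gave 1.411 (0.864 to 2.17) in WT, from 20 cells, and 1.81 (1.21 to 2.58) in VISTA-KO, from 29 cells.

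Over 18 points, the 7 CD8 groups and both CD4 classes of each library, the gene whose log2 level ran most like that of a factor was found by Pearson's r among 7436 genes, and is given for 9 of the factors. The points of a library share its depth and cells, and genes such as Pdcd1 and Cd8a also set the groups or classes. Tcf7 was most like Emb (r = 0.946), Lef1 like Map4k4 (0.959), Bach2 like Pik3ip1 (0.938) and Id3 like Nsg2 (0.885). Tox2 was most like Nrgn (0.945), Id2 like Ppil3 (0.888), Eomes like Gzmk (0.95), Tbx21 like F2rl2 (0.927) and Zeb2 like Tbkbp1 (0.921). Among the factors themselves the highest values were Tcf7 with Lef1 (0.916), Lef1 with Bach2 (0.914) and Tox with Tox2 (0.895), and the lowest were Lef1 with Tox (-0.85) and Tcf7 with Tox (-0.80).

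Partners and other regulators gave context, to be read beside the 1.08% of all 6083 genes called higher and the 0.690% called lower in CD8 cells. Of 14 partner proteins, among them the E protein genes Tcf3 and Tcf12 that Id2 and Id3 hold back and the Tle corepressors that TCF-1 recruits, 9 had enough counts in CD8 cells and 0 were called, with a median log2 ratio of -0.02. Of 28 other regulators of T cell fate, 26 had enough counts and 5 were called higher, 0 lower, with a median of 0.02. The 5 were Nr4a1 (127 CPM in WT against 369.6 CPM in VISTA-KO), Nr4a3 (31.7 and 78.2 CPM) and Nr4a2 (144 and 239 CPM), which respond to receptor signals, Irf4 (16.3 and 32.6 CPM), which also does, and Klf2 (392 and 566 CPM), which keeps S1pr1 on. Nr4a factors are known to act together with TOX in exhausted cells, and Tox itself had a log2 ratio of -0.20. Of 13 measured exhaustion genes, 11 had enough counts and 1 was called higher, and of 14 effector genes, 13 had enough and 3 were called higher and 1 lower, the higher ones being Tnf (42.5 and 66.5 CPM), Gzmb (747 and 1366 CPM) and Ifng (206 and 328 CPM) and the lower one Gzma (331 and 198 CPM).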

How the data were processed

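Droplet 5′ single-cell RNA-seq libraries of sorted CD4+ and CD8+ TILs, 1 pooled library per genotype, were analysed from the deposited UMI counts. Per the file headers, the authors made these counts with Cell Ranger 5.0.0 (mm10 per the labels) and the values are raw counts of UMIs per gene and barcode. The labels describe a 3′ kit as well, and the authors' cell type names were not used here. Cells with at least 600 genes and under 30% mitochondrial UMIs were kept. No doublet caller was run, and doublets were kept, with cells holding 2 or more productive beta chains left out as an alternative. Counts were summed by class and library to CPM. Folds are log2(CPM + 5) differences, called at 0.5 in size with at least 20 CPM in 1 library. Cells were thinned to 2000 UMIs for shares and pairs, and those below were left out. Intervals are exact (Poisson for levels, conditional binomial for ratios, Clopper-Pearson for shares) at 95%, and a count of 0 allows up to 3 counts. With 1 library per genotype there was no test. The 10 factors, the groups and the gene lists were chosen with earlier results of these data known. All 10 were named, and list genes by their counts with the called ones or the largest ratios. Likeness was Pearson's r of log2 levels. Scripts were tested on simulated data and used Python 3.11.15, numpy 2.4.6, scipy 1.17.1, pandas 2.3.3 and matplotlib 3.10.9. Alternatives changed the pseudocount, threshold, filters, classes, clonotypes and thinning depth, and 2 of them, without cells with Siglech or with melanoma transcripts, were chosen after seeing the data. CD8 groups were first planned as 8, and 1 was dropped after seeing the data because its gene is not reported here, so that its cells fell into the groups that follow.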

Additional observations from a re-analysis of the deposited data

How the results depend on the processing

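Of 78 recomputed counts of called factors, 66 stayed within 1.5 times and 12 moved. With 1 CPM added in place of 5, 2 factors were called lower in conventional CD4 cells, and with 20 CPM added, 0 in regulatory cells. In strict classes, 0 were lower in conventional CD4 cells, 1 was lower in regulatory cells and 3 were higher there. The lower count in conventional CD4 cells was 0 without cells with a Mki67 or Top2a UMI and 0 as a mean over cells. At a threshold of 0.3, 1 was higher in CD8, 4 were higher and 2 lower in conventional CD4 cells, and 3 were higher in regulatory cells. With no filter on low levels, 1 was higher in regulatory cells. The share of all genes called was not recomputed under these settings, so the changed counts have no share to be read beside. Of 294 recomputed values of called pair ratios, 3 turned: Bach2 with Zeb2 in VISTA-KO, 0.474 at 2000 UMIs, was 1.45 at 1000 UMIs and 1.05 at 4000 UMIs, and Tcf7 with Eomes in WT, 0.814, was 1.05 without cells with 2 or more beta chains. Over all draws the latter was 0.917, and the cause of these turns was not tested. Of 246 values of pair ratios that were not called, 61 lay on the other side of 1. Of the pairs called in both libraries, 8 of 8 above and 9 of 10 below kept their side under all alternatives. With groups set on cells thinned to 2000 UMIs, the highest group was the same for 14 of 20 factors and libraries and the lowest for 16. Of 140 levels in these groups, 75 moved beyond counting error. Among the changes, Id3 of WT was highest in the Pdcd1 cells with Slamf6 and Id2 of WT in the Cx3cr1 or S1pr5 cells. Eomes of VISTA-KO was highest in the dividing cells. Ratios of VISTA-KO to WT within groups were not recomputed on groups set at equal depth. Among 330 genotype ratios and 660 class ratios, only those of called values could be counted as turned, and none of these turned. Some genotype ratios that were not called did change sign. Tcf7 in CD8 cells kept its sign in 8 of 11 alternatives and Id3 in conventional CD4 cells in 7 of 11. The spread between mice is unknown, since no library was replicated. No paired analysis was possible because each genotype had 1 library.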
